A study of Homo sapiens with 6 samples.

Results

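The 9 genes described here encode the enzymes that act on the sterol ring between lanosterol and cholesterol: CYP51A1, TM7SF2, LBR, MSMO1, NSDHL, HSD17B7, EBP, SC5D and DHCR7. They were chosen by their place in the pathway, with earlier results of these data known, as 9 of 81496 gene symbols on the array. Each symbol was carried by 1 probe set, so the values below come from 9 of 135750 probe sets for transcripts.

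MCF10.AT1 is a premalignant human breast epithelial line derived from MCF10A. The labels describe it as untreated and sensitive to fluvastatin, a statin that inhibits HMG-CoA reductase. MCF10.AT1-R is a resistant derivative, selected from MCF10.AT1 in rising fluvastatin concentrations of 1, 5 and up to 20 µM, although the labels attach this treatment note to the samples of both lines. Whether MCF10.AT1-R was still in fluvastatin when its RNA was extracted was not given in the sources used here, so resistance and the presence of the drug cannot be told apart in any comparison below. MCF10.AT1-R is 1 selected line, and the labels call its samples biological replicates without saying from which cultures they came. The p-values therefore measure the spread between arrays of these lines and not between independent selections. Total RNA was measured on Clariom D arrays, 3 per line, and the values are log2 RMA values. The comparison used arrays A01 and A02 of MCF10.AT1 and B02, B03 and B04 of MCF10.AT1-R. The line of each array was inferred from its letter, and the direction of every change rests on that. Array A03 of MCF10.AT1, which the study left out as an outlier, is described apart. The arrays read RNA of whole cultures, in which fewer cells of a type and less RNA per cell cannot be told apart.

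Lanosterol, the first sterol of the pathway, carries 3 methyl groups that cholesterol lacks, and its double bonds lie elsewhere. CYP51A1 removes the methyl group at C14. The double bond that this leaves is reduced by a sterol C14 reductase, an activity that human cells have in TM7SF2, a protein of the endoplasmic reticulum, and in LBR, the lamin B receptor of the inner nuclear membrane. MSMO1, NSDHL and HSD17B7 then remove the methyl groups at C4, and EBP, SC5D and DHCR7 move, add and remove double bonds of the B ring. Most genes of the pathway are under the control of SREBP2, a transcription factor that is released when sterols in the endoplasmic reticulum run low. Statins block the pathway far upstream, at the step from HMG-CoA to mevalonate.

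In MCF10.AT1-R, 8 of the 9 genes read higher than in MCF10.AT1 on every array, and LBR read lower on every array. The changes (MCF10.AT1-R minus MCF10.AT1) of the 8 ran from 0.58 for HSD17B7 to 1.27 for TM7SF2 on the log2 scale, with a median of 0.82, and that of LBR was -0.92. With LBR included the median over the 9 genes was 0.78, beside a median of -0.01 over all 51457 probe sets that passed the filters on low and invariant values. All 9 genes passed these filters, of which the one on invariant values counts the difference between the lines as spread. Arrays of MCF10.AT1-R lay wholly above those of MCF10.AT1 for 12.9% of tested probe sets and wholly below for 13.8%. TM7SF2, higher in MCF10.AT1-R, was the only one of the 9 to pass FDR 5% with limma. In the same fit 0.758% of tested probe sets passed as higher and 0.447% as lower. At an unadjusted p under 0.05, 6 of the genes passed as higher and 1, LBR, as lower, beside 3.98% of all tested probe sets higher and 4.27% lower.

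**Figure D1:**
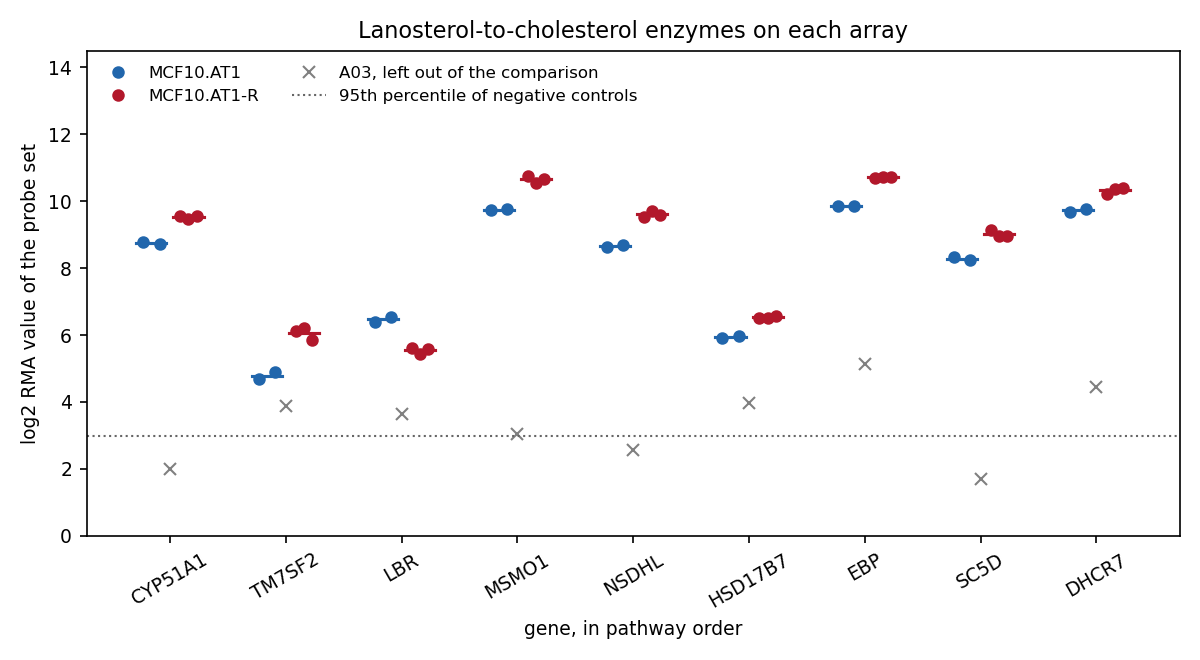
Log2 RMA values of the 9 genes in pathway order, with 1 point per array, a bar at the mean of each line, A03 as a cross and the 95th percentile of the negative controls (2.99) as a dotted line. The MCF10.AT1-R arrays lie above both MCF10.AT1 arrays for 8 genes and below them for LBR, and A03 lies below every other array for all 9.

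The number of the 9 genes that passed depended on how the spread was modelled. After the filters limma estimated 1 common SD of 0.34 for all probe sets, which gives each change a SE of 0.31. The spread of the 9 genes within a line was smaller than that, with residual SDs from 0.01 for EBP to 0.18 for TM7SF2. With limma's trend option, which lets the SD depend on the level, 7 of the genes passed as higher and LBR as lower, beside 1.69% of all tested probe sets higher and 0.981% lower. HSD17B7 was the exception, with an adjusted p of 0.127 in limma with the trend option. In both fits limma gave a gene's own spread no weight, so very small p-values rest on that model. When invariant probe sets were kept, 8 genes passed with the trend option. Their adjusted p in that limma fit ran from 2.89e-06 for EBP to 0.00663 for LBR.

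The entry step to the segment is catalysed by CYP51A1, a cytochrome P450. CYP51A1 read 8.78 and 8.72 on the MCF10.AT1 arrays and 9.56, 9.47 and 9.56 on the MCF10.AT1-R arrays. The lines were apart by several times the distance between arrays of a line, and the change was 0.78 (1.72-fold, SE 0.31). Its adjusted p was 0.34 in limma, and 1.27e-12 with the trend option.

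TM7SF2, which reduces the product of CYP51A1, read 4.67 and 4.90 on the MCF10.AT1 arrays and 6.11, 6.22 and 5.85 on the MCF10.AT1-R arrays. The means were 4.78 ± 0.16 (SD, n = 2) for the parental and 6.06 ± 0.19 (SD, n = 3) for the resistant arrays, which did not overlap. TM7SF2 rose by 1.27 on the log2 scale (2.42-fold, 95% interval 0.66 to 1.88, limma adjusted p = 0.00642), more than 99.5% of tested probe sets. The call did not hold when 1 MCF10.AT1 array was left out, with a limma adjusted p of 0.296 without A01 and 0.108 without A02, although the direction was kept. It also did not hold with no filter (limma adjusted p = 0.103), with the low-expression filter alone, which keeps invariant probe sets (0.0804), or with A03 added (0.777).

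LBR, which carries a sterol reductase domain and also binds lamins and HP1 proteins at the nuclear envelope, read 6.40 and 6.55 on the MCF10.AT1 arrays and 5.62, 5.44 and 5.60 on the MCF10.AT1-R arrays. The means were 6.47 ± 0.11 (SD, n = 2) for the parental and 5.55 ± 0.10 (SD, n = 3) for the resistant arrays. The lowest MCF10.AT1 array lay 0.77 above the highest MCF10.AT1-R array. The change of -0.92 (1.89-fold higher in MCF10.AT1) was more negative than that of all but 0.906% of tested probe sets. It missed FDR 5% in limma (adjusted p = 0.156, unadjusted p = 0.00322) and passed with the trend option (adjusted p = 0.00272).

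The changes of the pair of sterol C14 reductases thus had opposite signs. TM7SF2 minus LBR was -1.72 on A01 and -1.65 on A02, and 0.49, 0.78 and 0.25 on B02, B03 and B04. Since the probe sets differ, the value 0 has no meaning on this scale, and only its difference between lines can be read. It averaged -1.69 ± 0.05 (SD, n = 2) over the parental and 0.50 ± 0.26 (SD, n = 3) over the resistant arrays. These means were 2.19 apart, a 4.57-fold change of the ratio of TM7SF2 to LBR (SE 0.44 with the common SD and the probe sets taken as independent). In an exact two-sided permutation test over arrays p was 0.2, the smallest that the 10 splits of 2 against 3 arrays allow, so this test could not reach 0.05. The difference stayed between 2.06 and 2.32 when any 1 array was left out.

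**Figure D2:**
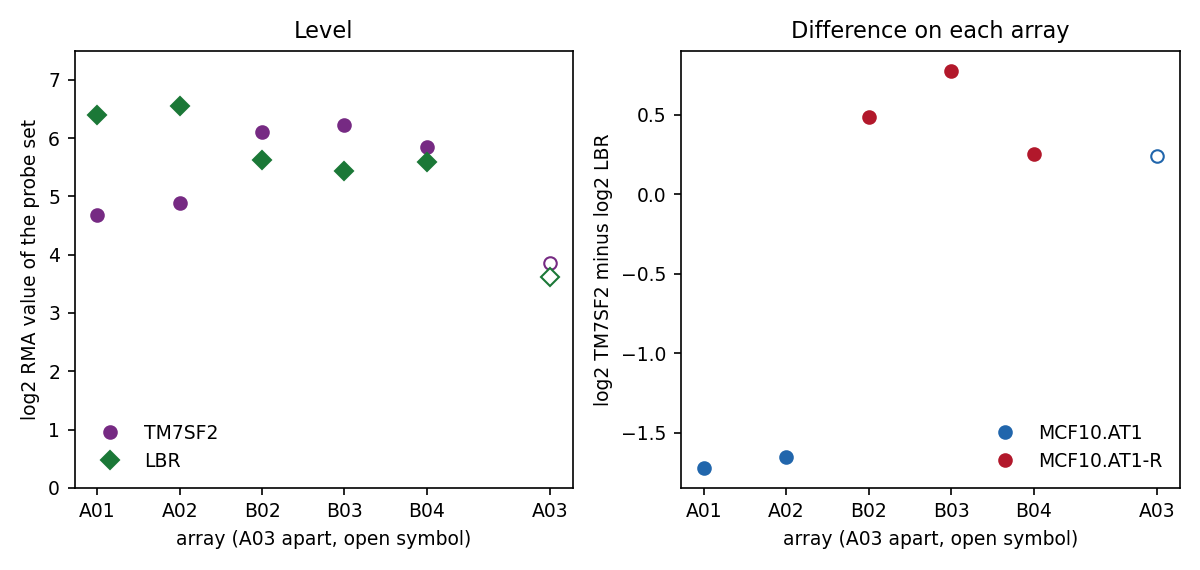
Log2 RMA values of TM7SF2 and LBR on each array (left) and TM7SF2 minus LBR in log2 units (right), with A03 apart as open symbols. The difference is -1.72 and -1.65 on the MCF10.AT1 arrays and between 0.25 and 0.78 on the MCF10.AT1-R arrays.

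The sequences before the starts of the genes are shown because TM7SF2 and LBR, which share a reaction, differed in direction. Windows of 250 bases before the start were taken from RefSeq (GRCh38.p14), where 9 of 9 genes matched, with 2 starts each for SC5D and DHCR7. Sterol-regulated promoters are known to combine a sterol regulatory element with a CCAAT box, bound by NF-Y, or a GC box, bound by Sp1. The window of TM7SF2 is chr11:65111622-65111871 on the plus strand and that of LBR is chr1:225428822-225429071 on the minus strand. CYP51A1, at chr7:92134478-92134727 on the minus strand, is the only other member without a CCAAT match, and NSDHL, at chrX:152830813-152831062 on the plus strand, has the most matches. Each is written 5′ to 3′ on the strand of its gene, with CCAAT, or ATTGG where the match is on the other strand, in capitals.
TM7SF2: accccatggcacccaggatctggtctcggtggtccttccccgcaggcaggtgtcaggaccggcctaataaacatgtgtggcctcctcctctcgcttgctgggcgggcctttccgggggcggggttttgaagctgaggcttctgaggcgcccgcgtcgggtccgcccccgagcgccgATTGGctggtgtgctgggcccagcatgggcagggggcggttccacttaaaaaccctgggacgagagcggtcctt
LBR: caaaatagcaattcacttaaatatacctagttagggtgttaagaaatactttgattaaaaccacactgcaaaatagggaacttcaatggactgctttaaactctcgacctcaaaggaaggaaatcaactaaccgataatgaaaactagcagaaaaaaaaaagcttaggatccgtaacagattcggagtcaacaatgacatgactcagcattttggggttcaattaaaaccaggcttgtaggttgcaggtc
CYP51A1: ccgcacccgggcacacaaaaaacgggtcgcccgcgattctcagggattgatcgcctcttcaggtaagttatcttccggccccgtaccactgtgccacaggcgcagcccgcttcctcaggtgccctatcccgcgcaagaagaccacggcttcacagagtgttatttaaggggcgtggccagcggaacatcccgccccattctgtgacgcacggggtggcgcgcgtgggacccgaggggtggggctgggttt
NSDHL: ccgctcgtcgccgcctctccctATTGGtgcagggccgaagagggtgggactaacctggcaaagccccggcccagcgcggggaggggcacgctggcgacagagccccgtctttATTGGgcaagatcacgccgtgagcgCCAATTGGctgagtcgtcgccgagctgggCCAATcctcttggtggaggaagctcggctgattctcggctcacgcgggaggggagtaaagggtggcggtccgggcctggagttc

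The windows of TM7SF2 and LBR had little in common in these letters. The window of TM7SF2 held 1 CCAAT match, 74 bases before the start and on the minus strand, and 4 GGGCGG matches. That of LBR held neither, and its GC content was 36.8%, against 66.4% for TM7SF2, 63.6% for CYP51A1 and 66.8% for NSDHL. Both strands were searched. CCAAT was found in 7 of 9 genes and in 37.0% of the 27305 genes of the table, and GGGCGG in 7 of 9 and in 46.2%. NSDHL held 5 CCAAT matches, of which a pair overlap in CCAATTGG, and no GGGCGG. A single form of the sterol regulatory element, TCACNCCAC, was found before none of the 9 genes and in 1.09% of all genes. The E-box CACGTG was found before 1, SC5D, and in 7.73% of all genes. A match describes these letters and is not a binding site, and the absence of a match applies to these windows alone.

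The methyl groups at C4 are removed in repeated rounds of oxidation by MSMO1, decarboxylation by NSDHL and reduction of the ketone by HSD17B7. MSMO1 read 9.74 and 9.76 in MCF10.AT1 and 10.76, 10.56 and 10.67 in MCF10.AT1-R, a change of 0.91 (1.88-fold, limma adjusted p = 0.162). NSDHL read 8.64 and 8.69 against 9.52, 9.71 and 9.60, a change of 0.95 (1.93-fold, limma adjusted p = 0.128). After TM7SF2 these were the largest positive changes of the 9 genes. HSD17B7 read 5.90 and 5.98 against 6.50, 6.50 and 6.57, the smallest of the changes at 0.58 (1.5-fold, limma adjusted p = 0.643). The values of all 3 genes were separated by line. With the trend option MSMO1 (adjusted p = 2.74e-33) and NSDHL (4.11e-19) passed in limma, and HSD17B7 did not. When invariant probe sets were kept, limma with the trend option gave adjusted p-values of 8.28e-06 for MSMO1 and 2.89e-05 for NSDHL.

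ERG28, listed under its older symbol C14orf1, tethers the C4 enzymes to one another in the endoplasmic reticulum. It read 9.17 and 9.10 in MCF10.AT1 and 9.82, 9.82 and 9.86 in MCF10.AT1-R, a change of 0.70 with a limma adjusted p of 0.468 and of 3.13e-12 with the trend option. Among the 7 scaffold and electron-donor genes that serve the oxidative steps, 5 were tested and 0 passed FDR 5% in limma, with 2 higher at an unadjusted p under 0.05 (3.98% of all tested probe sets) and 3 higher with the trend option (1.69%). The 3 were ERG28, CYB5R1, a reductase of cytochrome b5, and CYB5A, cytochrome b5 itself, with a change of 0.39. CYB5R1 had the largest positive change of this list, 0.83 (limma adjusted p = 0.268, 0.0267 with the trend option). POR, which passes electrons to CYP51A1 and to SQLE, had the most negative. POR read 4.68 and 4.22 in MCF10.AT1 and 4.25, 4.13 and 3.32 in MCF10.AT1-R, so the arrays overlapped (change -0.55, limma adjusted p = 0.68). The median change of the 7 was 0.39.

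EBP shifts the double bond of the B ring, SC5D adds one at C5, and DHCR7 removes the one at C7. EBP had the closest arrays of all 9 genes, with 9.85 and 9.86 in MCF10.AT1 and 10.71, 10.73 and 10.73 in MCF10.AT1-R. Its change was 0.87 (1.83-fold, limma adjusted p = 0.214, 1.4e-31 with the trend option), and the gap between the lines, 0.85, was far above its own residual SD of 0.012. SC5D read 8.34 and 8.24 against 9.14, 8.97 and 8.97, a change of 0.74 (1.67-fold, limma adjusted p = 0.397, 1.58e-08 with the trend option). DHCR7 read 9.68 and 9.78 against 10.22, 10.38 and 10.38, a change of 0.60 (1.52-fold, limma adjusted p = 0.619, 2.34e-12 with the trend option). All 3 were higher in MCF10.AT1-R without overlap of the arrays.

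The sizes of the changes were also compared among the 9 genes. Of the 36 pairs of the 9 genes, 28 do not include LBR, and in 0 of these did the 95% interval of the difference between the changes leave out 0 (SE 0.44, from the common SD). The largest of these differences was 0.69, between TM7SF2 and HSD17B7, and without TM7SF2 it was 0.36. In all 8 pairs with LBR the interval left out 0. With the smaller SEs of the trend option the interval left out 0 in 6 of the 28 pairs, 3 of them with TM7SF2 as the larger change (over HSD17B7, SC5D and DHCR7) and the other 3 with DHCR7 as the smaller (under MSMO1, NSDHL and EBP). On the arrays themselves, the difference between a pair of genes did not overlap between the lines in 17 of the 28, including all 7 pairs in which TM7SF2 had the larger change. These comparisons were not adjusted for their number. The pairs share genes, and all 7 pairs with TM7SF2 rest on the same values of that gene. The share among pairs of other probe sets was not computed, so the 17 cannot be set against a background.

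The 11 enzymes from acetyl-CoA to lanosterol were read in the same fit. Their median change was 0.91 with a range from 0.17 to 1.69, beside 0.82 for the 8 genes other than LBR after lanosterol. None of the 11 had a negative change, and the arrays of the lines overlapped for PMVK (phosphomevalonate kinase, 0.17) alone. Among all tested probe sets 12.9% lay wholly above in MCF10.AT1-R. In limma 10 were tested and 2 passed, MVD, the mevalonate diphosphate decarboxylase (1.69, adjusted p = 1.82e-05), and HMGCS1, the HMG-CoA synthase (1.57, adjusted p = 0.000121). At an unadjusted p under 0.05, 7 were higher (3.98% of all tested probe sets), and 7 passed with the trend option (1.69%). Thus a negative change among the 20 enzymes of both segments was found for LBR alone, with or without the genes that the filter removed. Windows before the start were listed for 7 of the 11 upstream genes. CCAAT was found in 6 of the 7 (37.0% of all genes) and GGGCGG in 7 (46.2%). Whether these matches bear on the changes was not tested.

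**Figure D3:**
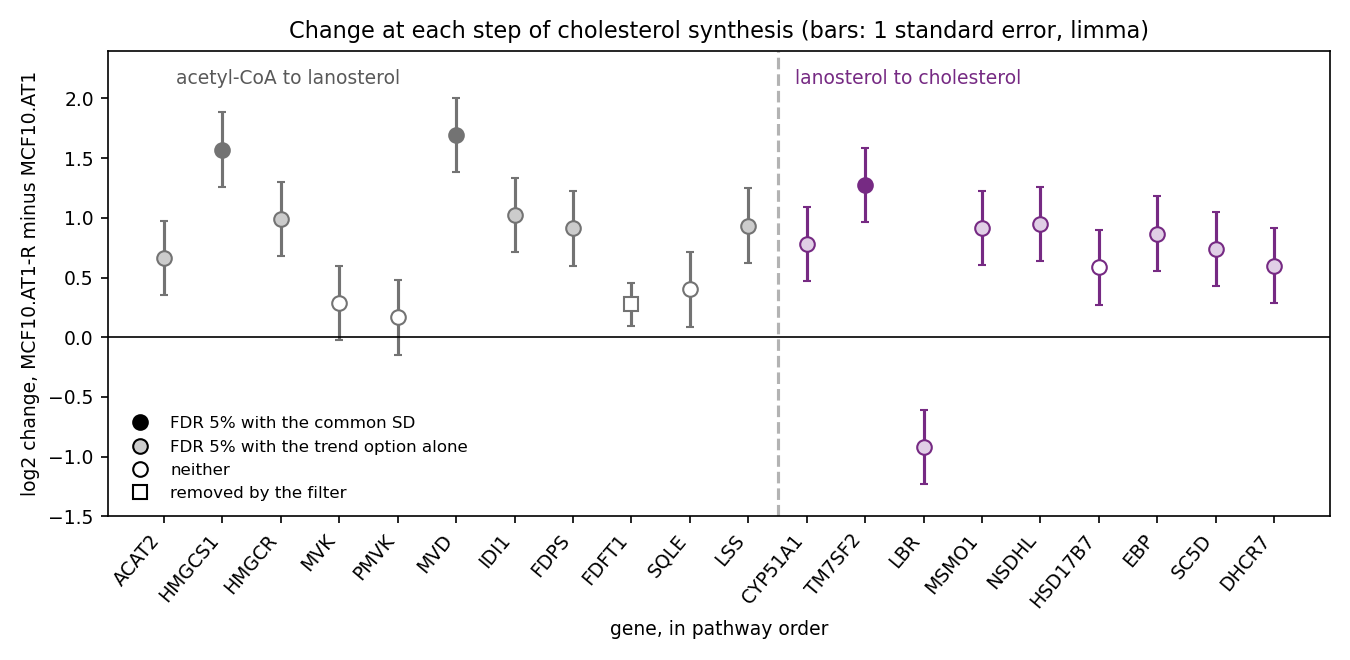
Log2 change (MCF10.AT1-R minus MCF10.AT1) of the 20 enzymes in pathway order, with bars of 1 SE from limma. Filled symbols passed FDR 5% with the common SD, pale ones with the trend option alone and open circles with neither. The open square, FDFT1, was removed by the filters and not tested, and its bar comes from the fit without them. LBR, at -0.92, is the only enzyme below 0, and TM7SF2, MVD and HMGCS1 are the filled symbols.

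**Figure D4:**
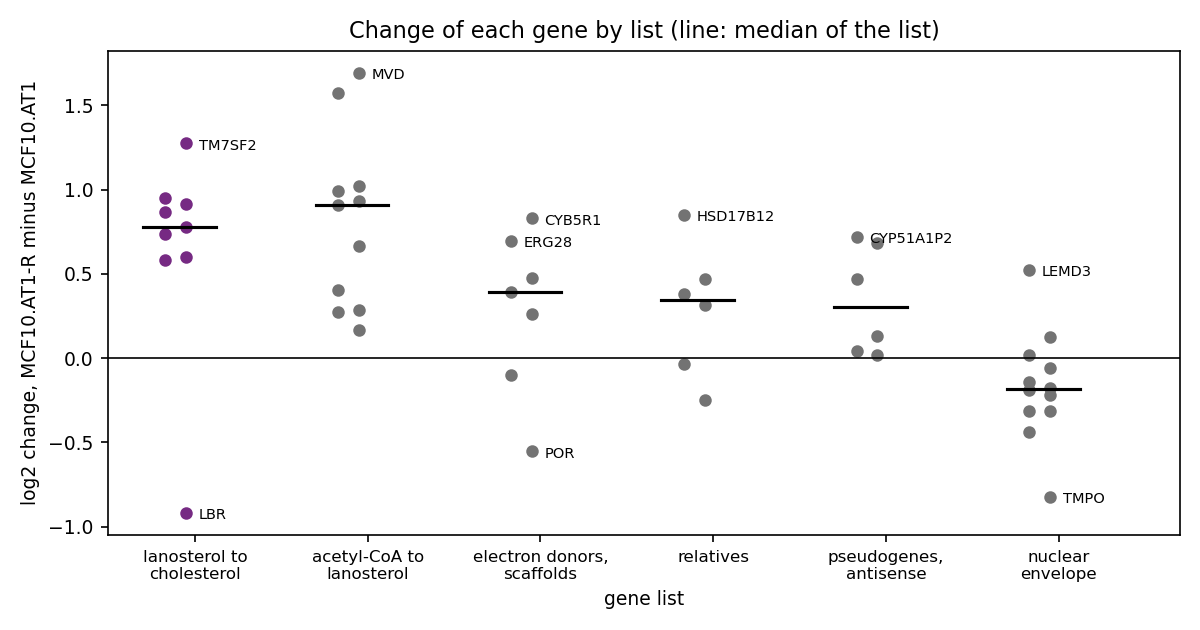
Log2 changes (MCF10.AT1-R minus MCF10.AT1) of the genes of each list, 1 point per gene, with the median of the list marked. The enzymes before and after lanosterol lie above 0 with LBR as the exception, and the nuclear envelope list runs from -0.82 to 0.52.

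LBR was also set beside 12 genes of the nuclear envelope, namely lamins, proteins of the inner membrane, BANF1 and the HP1 proteins. Of these, 7 passed the filters and 0 passed FDR 5% in limma, with 1 lower at an unadjusted p under 0.05 (4.27% of all tested probe sets) and 1 lower with the trend option (0.981%). That gene was TMPO, which encodes the lamin-binding LAP2 proteins. TMPO read 7.17 and 6.95 in MCF10.AT1 and 6.61, 5.88 and 6.22 in MCF10.AT1-R (change -0.82, limma adjusted p = 0.276, 0.00182 with the trend option). TMPO thus lay near LBR in size, with wider spacing of its arrays. The most positive change was that of LEMD3, another protein of the inner membrane, at 0.52 (limma adjusted p = 0.718). The arrays of MCF10.AT1-R lay below those of MCF10.AT1 for 5 of the 12, above for 1, and overlapped for 6. Among all tested probe sets 13.8% lay below and 12.9% above. The 5 include BANF1 (change -0.14), which the filters removed. The median change of the 12 was -0.18.

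Relatives and copies of the 9 genes were read as well. Of 6 relatives by protein family, 0 passed FDR 5% in limma, with 1 higher at an unadjusted p under 0.05 (3.98% of all tested probe sets) and 2 with the trend option (1.69%). The 2 were HSD17B12, a ketoacyl reductase of fatty acid elongation (0.85, limma adjusted p = 0.239, 0.000378 with the trend option), and TMEM97, a sterol-binding protein with an EBP-type fold (0.47, 0.00856 with the trend option). The most negative change was that of HSD3B7, an enzyme of bile acid synthesis, at -0.25 (limma adjusted p = 0.852). Among 6 pseudogene copies and antisense transcripts of CYP51A1 and HSD17B7, 4 were tested and 0 passed in limma, with 2 higher at an unadjusted p under 0.05 (3.98% of all tested probe sets) and 0 with the trend option. The 2 were CYP51A1P2 (0.72, limma adjusted p = 0.431) and HSD17B7P2 (0.68, limma adjusted p = 0.486). CYP51A1P2 read 3.01 and 2.98 on the MCF10.AT1 arrays, close to the 95th percentile of the negative controls (2.99). Probes of near-identical copies may bind each other's transcripts, so the values of CYP51A1, HSD17B7 and their copies are uncertain to that extent.

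The mean profile of the 9 genes, which LBR ran against, had close neighbours among genes of other kinds. The mean of the 9 genes, each centred on its mean over the 5 arrays, was -0.41 and -0.36 on A01 and A02 and 0.27, 0.25 and 0.25 on B02, B03 and B04. LBR is part of this mean, so the lines differ less in it than they would without LBR. Among 47796 symbols, those closest to this profile by Euclidean distance over the 5 arrays were THBS1, which encodes thrombospondin 1 (distance 0.06), HACD2, a dehydratase of fatty acid elongation (0.06), CHP1 (0.06), S100A2, a calcium-binding protein of epithelial cells (0.07), and bacharbu, a name given to a predicted transcript (0.07). With 5 arrays in 2 lines, likeness to this profile describes little beyond a like difference between the lines.

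The identity of the cells was checked against markers. All 8 epithelial markers, of which CDH1 and EPCAM mark epithelial cells in general and the keratins KRT5, KRT14 and KRT17 basal ones, lay above the negative controls on the 5 arrays. All 8 were tested and 6 passed FDR 5% as higher in MCF10.AT1-R in limma, beside 0.758% of all tested probe sets. Their log2 values summed to 55.2 and 55.9 in MCF10.AT1 and to 70.1 to 70.9 in MCF10.AT1-R. Of 6 markers of cornifying keratinocytes, 4 were tested and 3 passed as higher (KRT1, IVL and CDSN), beside the same 0.758%. Their sums were 19.0 to 19.3 against 24.0 to 26.1 over all 6, while FLG lay within the negative controls on all 5 arrays and LOR on 3. Of 11 markers of stromal, immune and fat cells, 5 were tested. None passed as higher and 1, PECAM1, as lower, beside 0.447% of all tested probe sets lower. The sums over the 11 were 40.2 to 40.4 against 38.0 to 38.4, with 3 to 5 of them within the negative controls on each array. The sums of the epithelial and keratinocyte markers were thus higher in MCF10.AT1-R. The lower sum of the other cell types lay mainly in PECAM1 (change -1.12) and PLIN1 (-1.06). The arrays of PLIN1 overlapped, and 3 of the 5 lay within the negative controls. The median change of the 11 was -0.003, with 5 positive and 6 negative, and the arrays overlapped for 10. The part of these markers in the results was not tested.

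A03 read the 9 genes lower than every other array. Its values ran from 1.68 for SC5D to 5.14 for EBP, and 3 of the 9 (CYP51A1, NSDHL and SC5D) lay below 2.99, the 95th percentile of the negative controls. The distance to the lowest of the other 5 arrays was smallest for TM7SF2, at -0.81, and largest for CYP51A1, at -6.73. The pseudogene copies CYP51A1P1 and HSD17B7P2 read above the other arrays on A03, at 6.15 and 5.69. Hybridization controls, which are added after the RNA is labelled, averaged 5.99 on A03 and 10.4 to 11.3 on the other arrays. Its correlation with the others over all transcript probe sets was 0.779 to 0.795, against 0.967 to 0.977 among the 5. Adding A03 to MCF10.AT1 turned the change of LBR to 0.03 (limma adjusted p = 0.99).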

How the data were processed

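Values are log2 intensities per probe set, which the authors deposited after RMA (background correction, quantile normalization and summarisation with affy and oligo) for all 6 Clariom D arrays. The genome build was not given in the sources used here. The array names end in a letter and a number, and give neither the line nor a replicate number of the labels. A was taken as MCF10.AT1 by inference, since the study's heatmaps, drawn after A03 was removed, show 2 columns of that line and 3 of MCF10.AT1-R. The 2995 control probe sets were left out.

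Of 135750 probe sets, those with a mean over the 5 arrays above the median (1.88) and a SD above the lowest 25% (0.18) entered limma (version 3.58.1, R 4.3.3; lmFit, then eBayes), and p-values of all 51457 were adjusted by Benjamini-Hochberg, with a threshold of FDR 5%. The limits were set here, as the methods name none. Genes removed by the filters were read from a fit without them and were not counted as passing. For a symbol with several probe sets, the one with the highest mean was used. Scripts were tested on simulated data.

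The 9 genes and the lists were chosen with earlier results of these data known. Named from the lists were genes past FDR 5%, the largest change in each direction, and the 5 nearest profiles. PMVK, C14orf1, CYB5A, TMEM97, HSD17B7P2, CYP51A1P1 and the cell markers were named after their values were seen. Alternatives changed the arrays, filters, variance model, weights, scaling and probe set choice, and the trend option without a filter was chosen after seeing the data. The number of arrays limits the precision.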

Additional observations from a re-analysis of the deposited data

How the results depend on the processing

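The number of the 9 genes past FDR 5% in limma was 1 in the fit used. It was 0 with A03 added (2 at an unadjusted p under 0.05), 0 with no filter (9) and 0 with the low-expression filter alone (9), and 8 with the trend option, with the low-expression filter and the trend option, and with no filter and the trend option. With any 1 array left out it ran from 0 to 1, and it was 0 without A01 or A02, where the lone MCF10.AT1 array is assumed to vary like the others. TM7SF2 passed in 11 of 16 alternatives, LBR in 3 and HSD17B7 in 0, and directions were kept in all 16 but for LBR with A03 added (0.0306). Of the upstream enzymes, 2 passed, 0 with A03 added (3 at an unadjusted p under 0.05), 7 with the trend option, 8 with the low-expression filter and the trend option, and 7 with no filter and the trend option. For the scaffolds and electron donors, 0 became 3, 1 and 1 in those fits, and for the nuclear envelope 0 became 1 with the trend option. TM7SF2 minus LBR ran from 1.55, with A03 added, to 2.32. Over all probe sets 620 passed, against 26 with A03 added, 177 with no filter, 182 with the low-expression filter, 1377 with the trend option, 1086 with both, 314 without A01 and 271 without A02. The filter on invariant values used the SD over the 5 arrays, which includes the difference between the lines. The SD towards which limma draws each gene was 0.34 in the fit used. It was 0.24 with no filter and 0.24 with the low-expression filter alone. The cause of these shifts was not tested. No paired analysis was possible because the array names carry no replicate number of the labels.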
